A study of Mus musculus with 4 samples.

Results

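Skeletal muscle genes were read out of RNA sequencing of mouse thyroids, as a measure of the muscle that came with the dissected gland. The set held 38 genes of the sarcomere, of calcium handling and of muscle energy supply. Members, and the other gene lists below, were chosen by gene symbol with earlier results of these data known. All 38 members were among the 16218 genes of the deposited table. The glands were from mice of the NOD.H-2h4 strain, used as a model of autoimmune thyroid disease, injected 3 times a week for 2 weeks. Animals of the IgG group, labelled CTR, received an isotype control antibody, and the other group received a monoclonal antibody against PD-L1, which restrains T cells by binding their receptor PD-1. The study asked what blocking PD-L1 changes in the thyroid. Each group had 2 libraries, and no age or sex is stated. The labels' batch field carries another clone string in each library (LTF2 and LTF3 for IgG, 10F.9G2 and 10F.9G3 for anti-PD-L1), so it cannot be told apart from the library itself.

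Striated muscle contracts when myosin heads of the thick filament pull on actin of the thin filament within the sarcomere, the unit bounded by Z discs. Troponin and tropomyosin on the thin filament hold contraction back until the sarcoplasmic reticulum releases calcium through the ryanodine receptor, and a calcium pump then returns it. Adult fibres are fast or slow according to the myosin heavy chain they carry, and embryonic and perinatal heavy chains mark developing or regenerating fibres. The strap muscles of the neck lie directly on the thyroid, and the mouse oesophagus and larynx beside it are also striated.

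Total counts per library ran from 75591923 to 79663374.5. Tg, the gene of thyroglobulin, took 15.3% and 14.6% of counts under IgG, and 4.34% (replicate 1) and 16.9% (replicate 2) under anti-PD-L1, so the gland itself was present in each library. Anti-PD-L1 replicate 1 stood apart. Xist, an RNA of the inactive X chromosome, stood there at 1.40 CPM (counts scaled to a common library size, TMM-normalized here and below) and elsewhere at 67.7 to 72.7 CPM. Ddx3y, a gene of the Y chromosome, stood there at 62.6 CPM and elsewhere at 0.350 to 0.790 CPM. Xist and Ddx3y were chosen after their values were seen. Each title names a mouse, but the labels do not state that the libraries of a group came from separate mice. The anti-PD-L1 libraries differed in Xist and Ddx3y as a male and a female would, so they cannot both be from the same mouse. The IgG libraries did not differ in this way. P-values measure only the spread between these libraries. A difference of sex cannot be told apart from anti-PD-L1 replicate 1 itself.

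Muscle transcripts were abundant in each of the 4 libraries. The 38 genes together took 6.59% and 8.65% of all counts under IgG, and 10.4% (replicate 1) and 4.17% (replicate 2) under anti-PD-L1. In IgG replicate 1 the calcium pump gene Atp2a1 and the skeletal actin gene Acta1 ranked 2 and 3 among all genes, behind Tg. The lowest count of any of the 38 genes in any library was 72, so each was measured above the level of 3 counts. That level was 0.0377 to 0.0397 CPM by library total, without TMM, and covers counting error only. All 38 passed the filter on low counts.

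The summed level of the 38 genes was 65645 and 88017 CPM under IgG and 106905 and 39959 CPM under anti-PD-L1. The anti-PD-L1 libraries held both the highest and the lowest sum, with the IgG libraries between them. The group means were 76831 ± 15820 CPM for IgG and 73432 ± 47338 CPM for anti-PD-L1 (SD, n = 2 each), a ratio of 0.956. Without anti-PD-L1 replicate 1 that ratio was 0.520, and without anti-PD-L1 replicate 2 it was 1.39. With 2 libraries per group an exact permutation test cannot give a p below 0.333, and no test was made on the sum. In whole tissue, fewer muscle cells and less muscle RNA per cell cannot be told apart.

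Most single genes followed the sum. Of the 38, 23 (60.5%) were highest in anti-PD-L1 replicate 1, as were 30.7% of all genes. In anti-PD-L1 replicate 2, 34 (89.5%) were at their lowest, as were 32.3% of all genes. Both held for 23 genes (60.5%), against 16.8% of all genes. The commonest order, held by 22 genes, ran from anti-PD-L1 replicate 1 through IgG replicate 2 and IgG replicate 1 down to anti-PD-L1 replicate 2. The 2 IgG libraries also differed, with 37 of the 38 genes higher in IgG replicate 2 and a median ratio of 1.36. Between the 2 anti-PD-L1 libraries the median ratio was 2.37, and the largest was 5.33, for Pvalb.

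**Figure D1:**
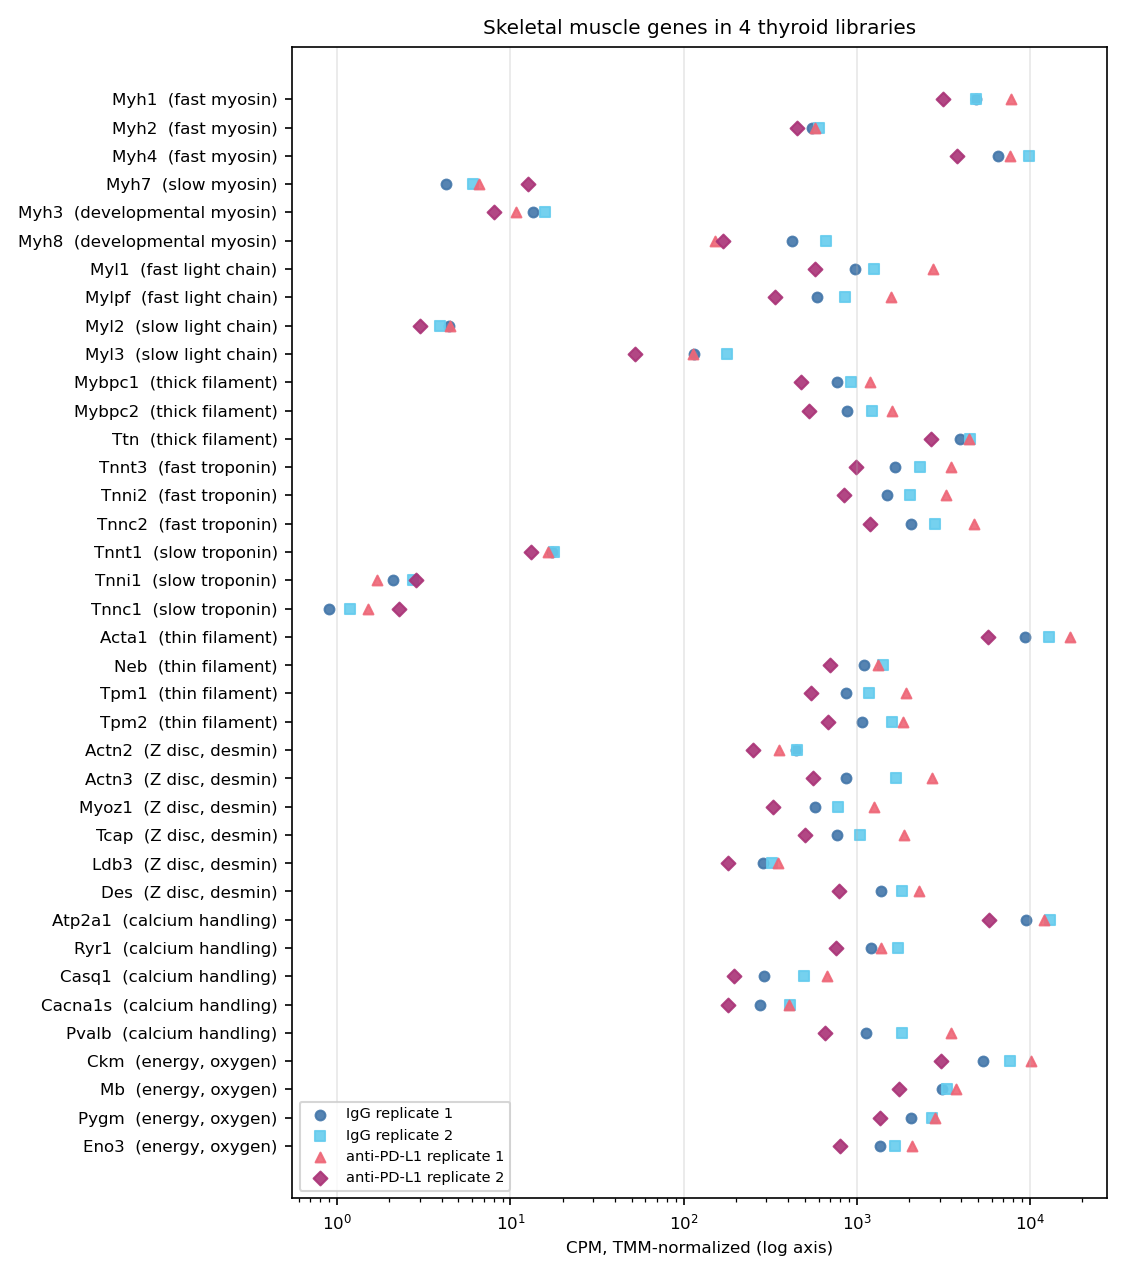
CPM of each of the 38 muscle genes (log axis) in the 4 libraries, 1 point per library, with the gene's role in brackets. Anti-PD-L1 replicate 2 is the lowest point for 34 genes and anti-PD-L1 replicate 1 the highest for 23, while Myh8 has both anti-PD-L1 points below both IgG points.

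Between treatments, 0 of the 38 genes passed the edgeR quasi-likelihood F test after Benjamini-Hochberg adjustment over all 16217 genes tested, where 0 genes in all passed (0%). At an unadjusted p under 0.05, 2 muscle genes were lower and 0 were higher, against 1.10% and 4.96% of all genes. limma voom also called 0 of the 38. DESeq2 called 1, Myh8, against 3.26% of all genes called in either direction and 0.327% called lower. The DESeq2 count was 29 without anti-PD-L1 replicate 1 (7.02% of all genes called) and 10 without anti-PD-L1 replicate 2 (4.84%). It was 1 without IgG replicate 1 (1.40%) and 1 without IgG replicate 2 (3.18%), and Myh8 was among the genes called each time. The median log2 fold change (anti-PD-L1 minus IgG) was −0.07 for the 38 genes and 0 for all genes tested. Without anti-PD-L1 replicate 1 the median was −0.94, and without anti-PD-L1 replicate 2 it was 0.45. Of the 38 genes, 21 lay below 0 with all 4 libraries, 35 without anti-PD-L1 replicate 1 and 9 without anti-PD-L1 replicate 2, so the sign of most single fold changes rests on these libraries.

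Both anti-PD-L1 libraries lay above both IgG libraries for 2 of the 38 genes (5.26%), Myh7 and Tnnc1, against 16.5% of all genes. Both lay below for 5 (13.2%), Myh3, Myh8, Myl3, Tnnt1 and Actn2, against 13.1% of all genes. The first share is below that of all genes and the second about equal to it.

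**Figure D2:**
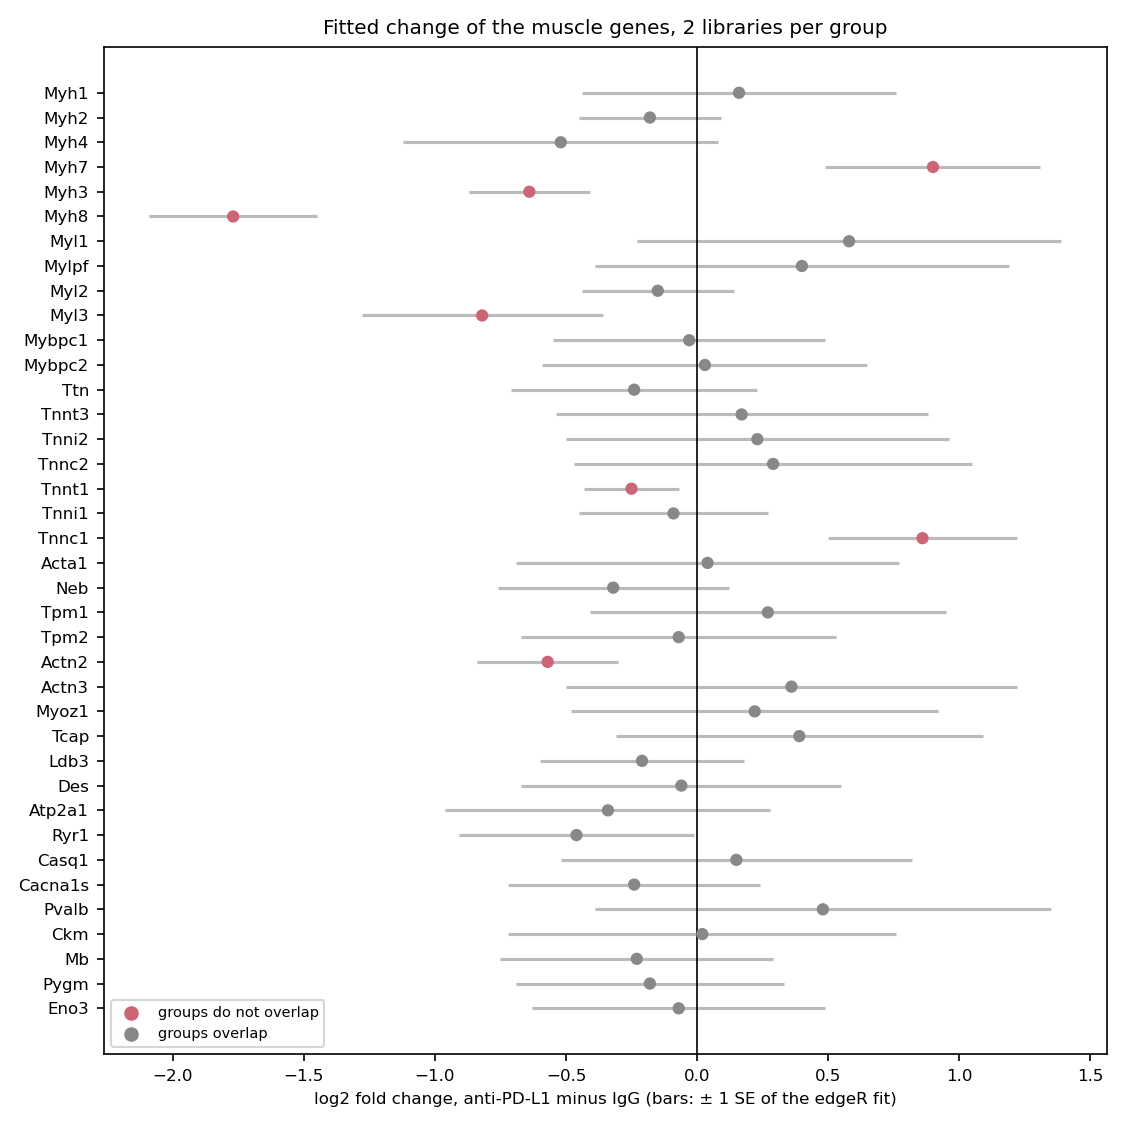
Log2 fold change of each muscle gene, anti-PD-L1 minus IgG, with bars of 1 SE from the edgeR fit on 2 libraries per group; red points mark genes whose groups do not overlap. Myh8 has the lowest value, −1.77, and Myh7 the highest, 0.90, and none of the 38 passed the adjusted threshold.

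The fast myosin heavy chains made up nearly all of the myosin. Myh4, the gene of the type IIb chain of the fastest fibres, had 6500 and 9859 CPM under IgG and 7649 and 3761 CPM under anti-PD-L1. Myh1, the gene of the type IIx chain, had 4870 and 4878 CPM against 7764 and 3117 CPM. Myh2, the gene of the type IIa chain of fast oxidative fibres, had 550 and 606 CPM against 570 and 450 CPM. For each of the 3, the groups overlapped, and anti-PD-L1 replicate 2 was the lowest library. Their log2 fold changes were −0.52 ± 0.60 for Myh4, 0.16 ± 0.60 for Myh1 and −0.18 ± 0.27 for Myh2 (SE, n = 2 per group, edgeR adjusted p = 1 for each). Myh1 took the other sign, −0.64, without anti-PD-L1 replicate 1.

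Slow myosin was rare. Myh7, the heavy chain gene of slow fibres, had 4.26 and 6.04 CPM under IgG and 6.56 and 12.6 CPM under anti-PD-L1. Its highest library was anti-PD-L1 replicate 2, the one in which the fast chains were lowest. The log2 fold change was 0.90 ± 0.41 (edgeR adjusted p = 0.994), and it was 0.33 without anti-PD-L1 replicate 2. Myh7 shares 5.43% of its 150-base transcript windows with the cardiac gene Myh6, so part of its count could be split with that gene.

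Both developmental heavy chains were lower in the anti-PD-L1 libraries. Myh8, the gene of the perinatal chain, had 424 and 667 CPM under IgG and 151 and 169 CPM under anti-PD-L1, with no overlap. Its log2 fold change was −1.77 ± 0.32, the lowest of the 38 genes. It did not pass edgeR over all genes (unadjusted p = 0.0039, adjusted p = 0.259) and did pass DESeq2 (adjusted p = 4.29e-06). When single libraries were left out, the edgeR log2 fold change of Myh8 ran from −2.08 to −1.41. Myh3, the gene of the embryonic chain, had 13.5 and 15.9 CPM against 10.8 and 8.07 CPM (log2 fold change −0.64 ± 0.23, edgeR unadjusted p = 0.043, adjusted p = 0.758).

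The level of Myh8 did not track that of the other muscle genes. Anti-PD-L1 replicate 1 had the most muscle RNA of the 4 libraries and the least Myh8. Myh8 made up 0.645% and 0.757% of the summed CPM of the 38 genes under IgG and 0.141% and 0.423% under anti-PD-L1, so the groups did not overlap on that scale either. Myh3 made up 0.0206% and 0.0180% against 0.0101% and 0.0202%, and there the groups did overlap. When the summed muscle count was used as the library size, a scaling chosen after the data were seen that called 0.0617% of all genes and 0 of the 38, Myh8 had a log2 fold change of −1.32 (edgeR unadjusted p = 0.154, adjusted p = 0.998) while the median of all genes moved to 0.36. Macrophage markers had the opposite difference, with sums of 173 and 229 CPM under IgG against 824 and 763 CPM. All 8 of that list were higher in both anti-PD-L1 libraries against 16.5% of all genes (edgeR called 0 of them, 8 were higher at an unadjusted p under 0.05 against 4.96% of all genes, and DESeq2 called 8 against 3.26%). T cell genes were also higher in sum under anti-PD-L1, at 23.3 and 43.2 CPM under IgG against 132 and 133 CPM. Interferon gamma genes had sums of 165 and 162 CPM against 1017 and 991 CPM. Of 10 cartilage genes, 6 were lower without overlap under anti-PD-L1, as Myh8 was, and 1 was higher. The same shares of all genes were 13.1% and 16.5%. The part of any of these lists in the difference in Myh8 was not tested.

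Per kb of merged exon, Myh4 held 55.0% and 64.2% of the 6 heavy chains under IgG and 49.1% and 52.3% under anti-PD-L1. Myh1 held 39.1% and 30.1% against 47.2% and 41.0%. The groups did not overlap in either share, with Myh4 the lower and Myh1 the higher under anti-PD-L1. Since Myh4 and Myh1 fill nearly all of the total, a lower share of Myh4 brings a higher share of Myh1, and the differences are not independent. The means were 59.6% ± 6.49 against 50.7% ± 2.23 for Myh4 and 34.6% ± 6.34 against 44.1% ± 4.37 for Myh1 (SD, n = 2 each), and no test was made. Myh8 held 1.83% and 2.22% against 0.495% and 1.20%. Its merged exons span 11772 bases while its longest transcript has 6149, and with the longest transcript as the length Myh8 held 3.37% and 4.09% against 0.919% and 2.21%. Myh7 held 0.0252% and 0.0275% against 0.0294% and 0.123%.

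**Figure D3:**
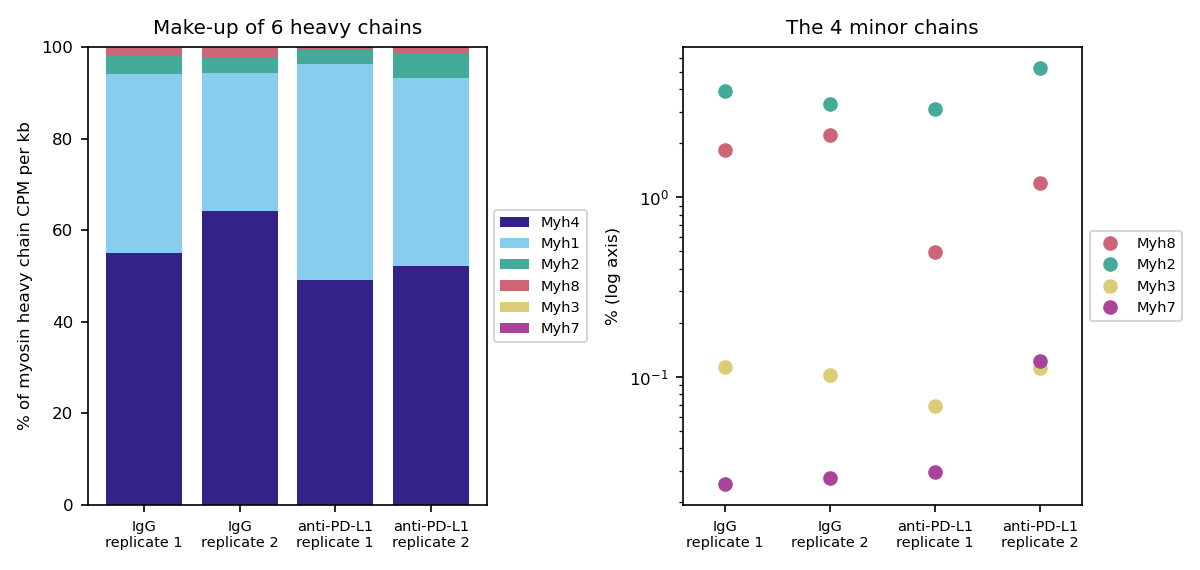
Left, the share of each of 6 myosin heavy chain genes in their summed CPM per kb of merged exon, stacked for the 4 libraries; right, the 4 minor chains on a log axis, 1 point per library. Myh4 and Myh1 fill nearly all of each bar, Myh8 is lower in both anti-PD-L1 libraries (0.495% and 1.20%) than in both IgG libraries, and Myh7 is highest in anti-PD-L1 replicate 2 (0.123%).

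All of the heavy chain genes but Myh7 lie side by side on the plus strand of chromosome 11. In GENCODE release M21 on GRCm38, the assembly also called mm10, the order is Myh3 (67078300 to 67102291), Myh2 (67171027 to 67197517), Myh1 (67200052 to 67224575), Myh4 (67238029 to 67260446) and Myh8 (67277124 to 67308634). Myh4 and Myh8 are therefore neighbours, and Myh8 was lower in both anti-PD-L1 libraries while the CPM of Myh4 overlapped between groups. Myh7 lies on chromosome 14, from 54970684 to 54994626 on the minus strand. The coding parts of these genes are alike, but exact sharing at read length is limited. Of the 150-base windows of each longest transcript, the share found unchanged in another of 8 heavy chain transcripts was 2.49% for Myh1, 2.06% for Myh2, 0.511% for Myh4, 1.60% for Myh8 and 0.306% for Myh3. Myh8 shared most with Myh13, a heavy chain gene of eye and larynx muscle, which had 7.08 and 6.88 CPM against 8.02 and 3.90 CPM (Myh13 was chosen after its values were seen).

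Upstream sequence is shown for Myh4 and Myh8, neighbours whose library patterns differed. Each run is the 250 bases before the RefSeq start on GRCm38.p6, 5′ to 3′ on the plus strand, at chr11:67237562-67237811 for Myh4 and chr11:67276874-67277123 for Myh8. Both lie before the start of the gene in GENCODE too. Capitals mark matches on either strand to the E-box CANNTG, bound by myogenic factors, the TATA box TATAAA, the MCAT element CATTCC, bound by TEAD factors, and the CArG box, bound by serum response factor. The MEF2 site was searched as well.
Myh4: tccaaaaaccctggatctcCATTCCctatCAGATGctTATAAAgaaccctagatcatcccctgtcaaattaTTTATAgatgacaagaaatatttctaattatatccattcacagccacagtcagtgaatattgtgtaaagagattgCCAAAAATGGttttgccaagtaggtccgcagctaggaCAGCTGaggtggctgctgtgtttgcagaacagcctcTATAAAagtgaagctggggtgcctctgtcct
Myh8: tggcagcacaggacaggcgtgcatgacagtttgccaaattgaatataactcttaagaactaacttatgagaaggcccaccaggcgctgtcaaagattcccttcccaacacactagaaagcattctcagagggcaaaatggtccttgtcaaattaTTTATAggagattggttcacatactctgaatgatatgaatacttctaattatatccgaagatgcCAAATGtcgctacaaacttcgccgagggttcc
These 250 bases held 7 matches in Myh4 and 2 in Myh8, and of the pair only the Myh4 run has a CArG box. RefSeq windows of 300 bases (250 before the start and 50 after) were found for 32 of the 38 genes, 39 windows in all. An E-box was in 84.6% of them and in 72.3% of all 32851 windows of that length. The TATA box was in 23.1% against 13.6%, and the MCAT element in 30.8% against 14.7%. The CArG box was in 12.8% against 1.63%, which is 5 muscle windows of 4 genes, 2 of them overlapping windows of Ldb3. The MEF2 site was in 2.56% against 0.557%, which is 1 muscle window. No match of 1 motif overlapped a match of another in the muscle windows. A match describes letters only and shows no binding.

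The fast light chains followed the muscle sum. Myl1, an essential light chain of fast fibres, had 969 and 1257 CPM under IgG and 2755 and 573 CPM under anti-PD-L1. Mylpf, the regulatory light chain of fast fibres, had 592 and 851 CPM against 1571 and 335 CPM. Each was highest in anti-PD-L1 replicate 1 and lowest in anti-PD-L1 replicate 2, 4.80 and 4.69 times apart. The log2 fold change of Myl1 was 0.58 ± 0.81 (edgeR adjusted p = 1), and it was −0.96 without anti-PD-L1 replicate 1. For Mylpf these values were 0.40 and −1.11. Myl3, an essential light chain of slow fibres and heart, had 115 and 178 CPM against 113 and 52.1 CPM, so its groups were separated by under 2 CPM. Myl2, the regulatory light chain of slow fibres and ventricle, was near the bottom of the set, at 4.39 and 3.91 CPM against 4.46 and 3.0 CPM.

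Of the other thick filament genes, Ttn encodes titin, the spring that spans from Z disc to the middle of the sarcomere. It had 3908 and 4488 CPM under IgG and 4418 and 2676 CPM under anti-PD-L1. Mybpc2 and Mybpc1 encode the fast and slow myosin-binding proteins C. Mybpc2 had 874 and 1218 CPM against 1603 and 532 CPM, and Mybpc1 had 763 and 929 CPM against 1182 and 475 CPM. Per kb, Mybpc2 stood at 1.44 and 1.64 times Mybpc1 in the IgG libraries and at 1.70 and 1.40 times under anti-PD-L1. That ratio varied little between libraries, unlike those of the fast to slow troponins below.

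The fast troponins moved as a block. Tnnc2, the calcium-binding subunit, had 2037 and 2836 CPM under IgG and 4755 and 1197 CPM under anti-PD-L1. Tnnt3, the subunit that binds tropomyosin, had 1660 and 2325 CPM against 3496 and 987 CPM. Tnni2, the inhibitory subunit, had 1488 and 2011 CPM against 3249 and 846 CPM. All 3 were highest in anti-PD-L1 replicate 1 and lowest in anti-PD-L1 replicate 2, with log2 fold changes from 0.17 to 0.29, none past the threshold. Without anti-PD-L1 replicate 1 the values were −1.01 for Tnnt3, −1.05 for Tnni2 and −1.03 for Tnnc2. Tnni2 and Tnnt3 are close neighbours on chromosome 7, from 142441808 to 142444410 and from 142498836 to 142516009.

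The slow troponins did not follow. Tnnc1, the calcium-binding subunit of slow fibres and heart, had 0.90 and 1.18 CPM under IgG and 1.5 and 2.28 CPM under anti-PD-L1 (log2 fold change 0.86 ± 0.36, adjusted p = 0.92 by edgeR). Tnni1 had 2.10 and 2.73 CPM against 1.69 and 2.86 CPM. Both were highest in anti-PD-L1 replicate 2, like Myh7. Tnnt1 had 17.3 and 17.9 CPM against 16.4 and 13.2 CPM, the smallest fold between highest and lowest library of the 3 (1.36). Per kb, Tnni2 exceeded Tnni1 by 1703 and 1771 times in the IgG libraries, 4630 times in anti-PD-L1 replicate 1 and 711 times in anti-PD-L1 replicate 2. The fast form was far above the slow one in each library.

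Acta1 led the thin filament genes. This gene, for the actin of skeletal muscle, had 9275 and 12831 CPM under IgG and 16958 and 5737 CPM under anti-PD-L1. Neb, the gene of nebulin, which runs along the thin filament, had 1092 and 1421 CPM against 1316 and 701 CPM. The tropomyosin genes Tpm1 and Tpm2 had 867 and 1172 CPM against 1920 and 542 CPM, and 1065 and 1589 CPM against 1850 and 676 CPM. Log2 fold changes of the 4 genes lay between −0.32 and 0.27, and the groups overlapped in each. Without anti-PD-L1 replicate 1 they lay between −0.97 and −0.84.

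Tpm1, Tpm2 and the intermediate filament gene Des are also expressed by smooth muscle. Of 10 smooth muscle genes, 0 passed edgeR and 0 were called by DESeq2, against 0% and 3.26% of all genes. At an unadjusted p under 0.05 by edgeR, 0 were higher and 0 were lower, against 4.96% and 1.10% of all genes. The smooth muscle genes had sums of 529 and 665 CPM against 576 and 550 CPM. These sums differed far less between libraries than those of skeletal muscle. Leaving out Des, Tpm1 and Tpm2 gave a ratio of summed muscle CPM of 0.952, against 0.956 with them.

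At the Z disc, the 2 alpha-actinins differed from each other. Actn3, the form of fast fibres, had 861 and 1690 CPM under IgG and 2708 and 556 CPM under anti-PD-L1. Actn2, the form of all fibres and the heart, had 444 and 453 CPM against 354 and 252 CPM, with no overlap (log2 fold change −0.57 ± 0.27, edgeR adjusted p = 1). Per kb, Actn3 stood at 2.54 and 4.88 times Actn2 in the IgG libraries and at 10.0 and 2.89 times under anti-PD-L1. The ratios of the groups overlapped, and the anti-PD-L1 libraries differed more from each other than the IgG libraries did. Tcap, the titin cap, had 768 and 1043 CPM against 1870 and 500 CPM, and Des had 1377 and 1814 CPM against 2275 and 784 CPM. Myoz1, a calcineurin-binding Z-disc protein, and Ldb3, a scaffold of the disc, had log2 fold changes of 0.22 ± 0.70 and −0.21 ± 0.39, and of −1.04 and −0.77 without anti-PD-L1 replicate 1. Of the other 4, Actn3 turned from 0.36 to −1.20 and Tcap from 0.39 to −0.86 without that library.

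Among calcium-handling genes, Atp2a1, the calcium pump of fast fibres, had 9475 and 13013 CPM under IgG and 12020 and 5757 CPM under anti-PD-L1. Pvalb, the gene of parvalbumin, a soluble calcium buffer of the fastest fibres, had 1132 and 1829 CPM against 3485 and 654 CPM. Pvalb had the widest fold between highest and lowest library of the 38 genes (5.33). Ryr1, the calcium release channel, had 1206 and 1722 CPM against 1371 and 756 CPM. Casq1, which stores calcium in the reticulum, and Cacna1s, the voltage sensor in the cell membrane, had log2 fold changes of 0.15 ± 0.67 and −0.24 ± 0.48. Without anti-PD-L1 replicate 1, Casq1 stood at −1.0, Cacna1s at −0.94 and Pvalb at −1.18 (0.48 with it). All 5 overlapped between groups.

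Genes of energy and oxygen supply behaved alike. Ckm, the muscle creatine kinase, had 5368 and 7595 CPM under IgG and 10132 and 3055 CPM under anti-PD-L1. Mb, the gene of the oxygen store myoglobin, had 3099 and 3327 CPM against 3750 and 1738 CPM. Pygm, the glycogen phosphorylase of muscle, and Eno3, its enolase, completed the class. All 4 were highest in anti-PD-L1 replicate 1 and lowest in anti-PD-L1 replicate 2, with log2 fold changes from −0.23 to 0.02. Without anti-PD-L1 replicate 1 the values were −1.09 for Ckm, −0.89 for Mb, −0.80 for Pygm and −0.92 for Eno3, and without anti-PD-L1 replicate 2 they ran from 0.21 to 0.63.

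Anti-PD-L1 replicate 1 exceeded the IgG mean more for short genes than for long ones. For the 13 muscle genes with under 2 kb of merged exon its median fold over the IgG mean was 1.75, for the 13 of 2 to 5 kb it was 1.39 and for the 12 over 5 kb it was 1.05. In anti-PD-L1 replicate 2 the same medians were 0.501, 0.512 and 0.554. Across the 38 genes, which share their libraries and are not independent, the log2 ratio in anti-PD-L1 replicate 1 correlated with log2 length at Pearson r = −0.49 (Spearman −0.56), and between the IgG libraries at −0.13. The trend was not particular to muscle. Over 1654 other genes with a mean of at least 100 CPM it was −0.33 (Spearman −0.43), and over all 15870 genes with a length it was weaker, −0.18 (Spearman −0.25). Its part in the differences among muscle genes was not tested.

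**Figure D4:**
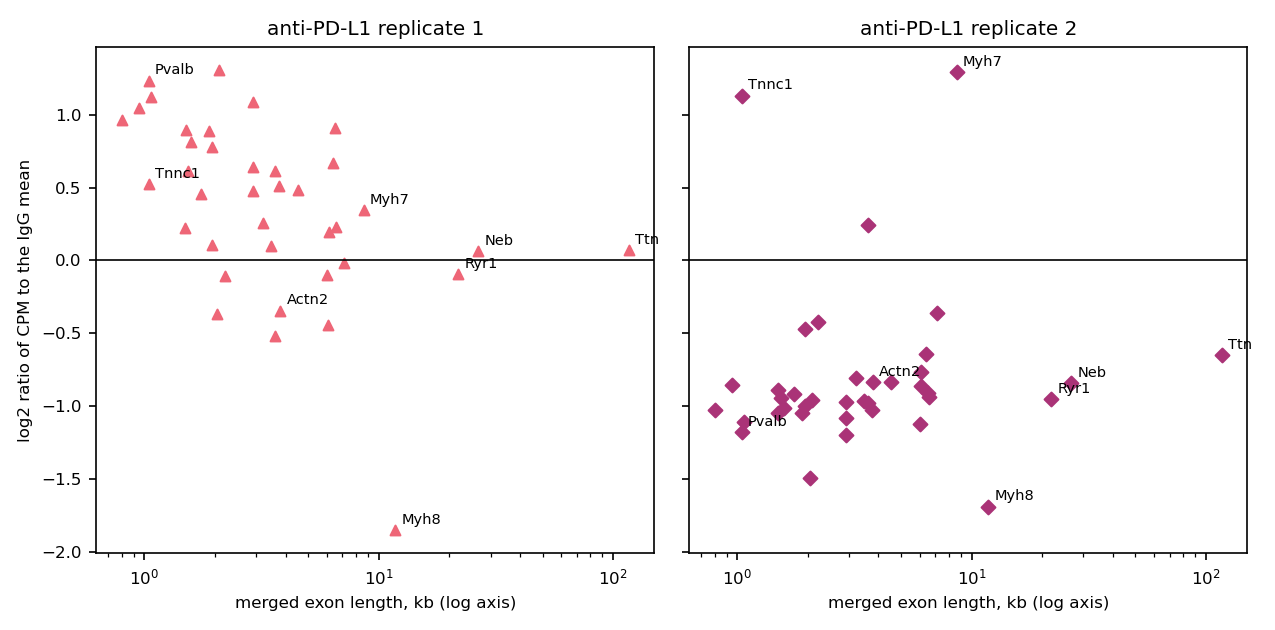
Log2 ratio of CPM to the IgG mean against merged exon length in kb (log axis), 1 point per muscle gene, for anti-PD-L1 replicate 1 (left) and anti-PD-L1 replicate 2 (right). On the left short genes such as Pvalb lie above long ones such as Ttn, Neb and Ryr1, and Myh8 lies lowest in both panels.

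Beyond the 38 genes, 62 others of skeletal muscle in 3 lists were also mostly lowest in anti-PD-L1 replicate 2. This held for 60 of 62 (96.8%), against 32.3% of all genes. In anti-PD-L1 replicate 1, 35 of 62 (56.5%) were at their highest, against 30.7% of all genes. Of the 62, 0 passed edgeR and 0 were called by DESeq2, against 0% and 3.26% of all genes. At an unadjusted p under 0.05 by edgeR, 1 was higher and 4 were lower, against 4.96% and 1.10% of all genes. Their median log2 fold change was −0.21. Anti-PD-L1 replicate 2 was the lowest library for 27 of 28 other sarcomere genes, 21 of 22 other excitation and calcium genes and 12 of 12 other energy genes. Mybph, a relative of the myosin-binding proteins C, had 73.6 and 70.3 CPM against 47.7 and 32.9 CPM (log2 fold change −0.84 ± 0.23, adjusted p = 0.519 by edgeR). Chrnd, a subunit of the acetylcholine receptor at the nerve contact, had 6.18 and 6.64 CPM against 4.38 and 2.97 CPM (log2 fold change −0.80 ± 0.28, adjusted p = 0.732 by edgeR).

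Of 11 myogenic and regeneration genes, 8 were in the table. Of the 8, edgeR and DESeq2 each called 0, against 0% and 3.26% of all genes. At an unadjusted p under 0.05 by edgeR, 1 was lower and 0 were higher, against 1.10% and 4.96% of all genes. Myog, the factor that drives myoblasts to differentiate, had 8.25 and 9.09 CPM under IgG and 5.36 and 3.33 CPM under anti-PD-L1, with no overlap (log2 fold change −1.0 ± 0.30, edgeR unadjusted p = 0.0266, adjusted p = 0.607). Myf5, an early myogenic factor, had 1.58 and 2.78 CPM against 1.25 and 0.605 CPM, also with no overlap (edgeR unadjusted p = 0.0705, adjusted p = 0.924). Myf6, the factor most expressed in adult fibres, had 37.8 and 47.6 CPM against 46.5 and 21.2 CPM. The anti-PD-L1 values were the lower without overlap for 3 of the 8 genes (37.5%), against 13.1% of all genes. They were the higher without overlap for 0 of the 8, against 16.5% of all genes. Of the 62 other skeletal muscle genes above, 12 (19.4%) were lower without overlap and 1 (1.61%) was higher. Of 8 genes of denervation and atrophy, edgeR and DESeq2 each called 0, against the same 0% and 3.26% of all genes. At an unadjusted p under 0.05 by edgeR, 0 were lower and 0 were higher, and sums were 1214 and 1239 CPM against 1436 and 1502 CPM. Most of these sums came from the metallothionein genes Mt1 (494 and 478 CPM against 561 and 714 CPM) and Mt2 (347 and 338 CPM against 397 and 528 CPM). Fbxo32, a ubiquitin ligase of muscle atrophy chosen after its values were seen, had 151 and 191 CPM against 224 and 83.8 CPM.

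Of 10 genes of heart muscle, 5 were in the table, with Actc1, which skeletal muscle also expresses, at 454 and 472 CPM against 473 and 185 CPM and Ryr2 at 14.0 and 16.1 CPM against 13.4 and 12.9 CPM. Genes of tissues beside the gland also varied by library. Squamous genes such as Krt13 and Krt4 summed to 11219 and 3052 CPM under IgG and to 4545 and 48.7 CPM under anti-PD-L1, and airway genes summed to 1420 and 7807 CPM against 12603 and 2773 CPM. Neither list had the order of the muscle sum. Still, anti-PD-L1 replicate 2 was the lowest library for 8 of 8 squamous genes, against 32.3% of all genes. The airway sum of anti-PD-L1 replicate 1 came mostly from Bpifb1 (8125 CPM). That library was the highest for 2 of 8 airway genes (25%), against 30.7% of all genes. Cartilage genes summed to 276 and 308 CPM against 171 and 277 CPM. The sum of anti-PD-L1 replicate 2 came mostly from Sox9 and Cnmd. Sox9 had 97.2 and 106 CPM under IgG against 61.7 and 113 CPM, and Cnmd had 56.8 and 43.9 CPM against 60.9 and 115 CPM. For 6 of 10 the anti-PD-L1 values were the lower without overlap, and for 1 the higher, against 13.1% and 16.5% of all genes. For this list edgeR called 0 and DESeq2 called 5, against 0% and 3.26% of all genes. At an unadjusted p under 0.05 by edgeR, 5 were lower and 0 were higher, against 1.10% and 4.96% of all genes. Among the lower genes was Acan, at 56.3 and 75.1 CPM against 7.35 and 10.6 CPM (edgeR unadjusted p = 0.000319, adjusted p = 0.162). Which muscle the transcripts came from, strap, oesophagus or larynx, was not tested.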

How the data were processed

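Poly(A)-selected RNA of mouse thyroids was sequenced in 4 libraries as 150-base pairs, per the labels' protocols. The authors deposited expected counts per gene symbol, not normalized. BWA and mm10 are named, without role or version, per the submitters' processing notes, and counting program, annotation and strand setting are not stated in the labels or headers. The lowest maximum over libraries of any gene was a count of 100. In 3328 genes a count ended in 0.5, and counts were rounded to whole numbers. No muscle gene was among those with the 13 blank cells, which were read as 0.

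The whole table was fitted with edgeR 4.0.16 in R 4.3.3 (filterByExpr, 16217 genes, TMM, robust quasi-likelihood F test on group, two-sided, Benjamini-Hochberg adjustment, threshold 0.05). Residual degrees of freedom were 2 and the median biological coefficient of variation 24.4%. SE is the absolute log2 fold change over the square root of F. The steps were run on simulated counts with a fixed dispersion below the median of these data, which checks the code and not its power here. DESeq2 1.42.0, limma voom 3.58.1, other scalings and filters, the replicate number as a block and each library left out were the alternatives.

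Lengths and positions come from GENCODE M21 (GRCm38), promoters from RefSeq (GRCm38.p6). Exons of 17 of the 38 genes overlap those of an opposite-strand gene (Tnnc2 and Ube2c by 592 bases, Atp2a1 and Rabep2 by 763), and without a stated strand setting reads of such pairs cannot be told apart. All 38 genes were to be named. Per-library values were given for the heavy chains, for the 2 genes of largest mean in each role and for those of smallest p or most extreme change, and of other lists for genes of largest mean or smallest p. 1 gene that this rule names is not reported here. Members and lists were chosen with earlier results of these data known.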

Additional observations from a re-analysis of the deposited data

How the results depend on the processing

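Genes past the adjusted threshold numbered 0 with edgeR under RLE, upper-quartile and library-total scaling, scaling without muscle genes and Tg, no filter, the stricter filter (1 CPM in 2 libraries, mean count 20), limma voom and each library left out. They numbered 15 at an adjusted p under 0.10, 528 with DESeq2, and 10 with scaling to the muscle total (chosen after seeing the data). With a library left out, also chosen after seeing the data, DESeq2 called 227 genes (without IgG replicate 1), 515 (IgG replicate 2), 1139 (anti-PD-L1 replicate 1) and 785 (anti-PD-L1 replicate 2), and from 1 to 29 of the 38 muscle genes (1 without IgG replicate 1 or 2, 29 without anti-PD-L1 replicate 1, 10 without anti-PD-L1 replicate 2), where a group of 1 library is assumed to vary like the other. DESeq2 with all libraries called 1 muscle gene, Myh8 (log2 fold change −1.78). Leaving out each library gave muscle medians of −0.94 to 0.45, and a ratio of summed muscle CPM of 0.52 to 1.39. The mean Myh8 share of heavy chains was 2.03% in IgG and 0.847% in anti-PD-L1 per kb of merged exon, 3.73% and 1.56% by longest transcript, and 3.79% and 1.59% with no length scaling, the length used being the cause. Myh2 had a log2 fold change of 0.12 with scaling to the muscle total against −0.18. Leave-one-out values ran for Myh1 from −0.64 to 0.66 and for Myl1 from −0.96 to 1.29. Of the 38 genes, 30 had 1 sign in all 9 settings that kept the 4 libraries and scaled on other genes too, and 10 had 1 sign with each library left out. The replicate numbers of the titles mark no shared animal, and deviations of same-numbered libraries correlated at 0.0998. With the replicate block edgeR called 0 genes, the muscle median was −0.18 and Myh8 was −1.74 (adjusted p = 0.318). The number of libraries, 2 per group, limits the precision of each difference.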
